A study of Mus musculus with 4 samples.

Results

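Inserts of 26 to 28 nt are the shorter shoulder of the small RNAs recovered with PIWIL1 from mouse testis, a size more typical of RNAs bound by the related protein PIWIL2. They were chosen by length alone: the insert is the sequence in front of the 3′ adapter, and every distinct insert of 26, 27 or 28 nt is a member. This gave 276554 members among 2517272 distinct inserts of any length. For comparison, 1399635 distinct inserts were 29 to 31 nt long, the main length class. The small RNAs came from testes of wild-type C57BL/6J mice aged 10 weeks, in 2 replicate PIWIL1 immunoprecipitations followed by size selection on a gel. The labels do not say whether the replicates came from separate animals. RNA-seq of testes from younger Piwil1-/- and Piwil1+/- mice (postnatal day 23) also belongs to the series and was not used here. The small RNA libraries held 4836797 and 6408274 reads, of which 4722785 in replicate 1 and 6322998 in replicate 2 had an insert. No control immunoprecipitation was analysed here, so nothing below is an enrichment over background, and whether PIWIL2 also carried these RNAs cannot be told from these libraries.

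PIWI-interacting RNAs (piRNAs) guide PIWI-clade Argonaute proteins of the germ line. In mouse, a long single-stranded precursor is cut to set the 5′ end, most often in front of a U. The PIWI protein holds that end, and the 3′ end is then shortened by the exonuclease PNLDC1 with its partner TDRKH, and methylated by HENMT1. Several RNAs that share a 5′ end and differ in their 3′ end are therefore commonly seen, and pachytene piRNAs of adult testis are carried mainly by PIWIL1, also called MIWI, and PIWIL2, also called MILI.

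The 6 most abundant members each had the same first bases as an abundant longer RNA. They are shown as examples of the main result, which holds for most reads. Exact beginnings of a 29 to 31 nt insert made up 79.5% ± 1.60 of 26 to 28 nt reads (SD, n = 2). Among distinct 26 to 28 nt sequences they made up 57.1% ± 0.0371. Nearly all members this abundant shared their first bases with a longer insert, as given below, so the 6 do not stand for rare members. Each pair below gives the member and the commonest insert of 29 to 31 nt with the same 5′ end, 5′ to 3′ and with T for U as in the files. Capitals mark the bases present in the longer insert alone.
Member 1, 28 nt: tttgaaatcaggactgttctggaaattc
Longer form of member 1, 29 nt: tttgaaatcaggactgttctggaaattcC
Member 2, 28 nt: tacactgtcgtgctcctgtacctagttc
Longer form of member 2, 30 nt: tacactgtcgtgctcctgtacctagttcAC
Member 3, 28 nt: ttgatggtaattggaagagcttctgggt
Longer form of member 3, 30 nt: ttgatggtaattggaagagcttctgggtGT
Member 4, 28 nt: ttattgtagataaaagggacagcatacc
Longer form of member 4, 31 nt: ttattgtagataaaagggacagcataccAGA
Member 5, 27 nt: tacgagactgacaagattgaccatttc
Longer form of member 5, 30 nt: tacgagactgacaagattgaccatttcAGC
Member 6, 27 nt: tattgtagataaaagggacagcatacc
Longer form of member 6, 30 nt: tattgtagataaaagggacagcataccAGA
Members 4 and 6 are not independent, since they are the same sequence but for the first base. Genomic positions were not determined here.

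Member 1 had 683 reads per 1000000 insert reads (RPM) in replicate 1 and 1128 in replicate 2, and its 29-nt form had 1453 and 2015 RPM. The shorter form was below the longer in both libraries and moved in the same direction between them. Of all reads of 26 to 31 nt with that 5′ end, the 26 to 28 nt forms made up 27.7% in replicate 1 and 31.4% in replicate 2. At this end, reads of 28 nt numbered 10784 over both libraries, against 418 of 27 nt and 142 of 26 nt, so 1 length made up nearly all of the short form.

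Member 2 was at 241 and 342 RPM in replicates 1 and 2, against 1029 and 1179 RPM for its 30-nt form. Its 5′ end gave 16.2% and 17.2% of reads as 26 to 28 nt, and also 1342 reads of 23 nt over both libraries. Member 3 was at 199 and 261 RPM, against 427 and 691 RPM for its 30-nt form. In both libraries the longer form was the commoner.

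Members 4 to 6, as single inserts, were nearer in amount to their longer forms. The 5′ end of member 4 gave 31.3% and 30.6% of its reads as 26 to 28 nt, not far from member 1. The end of member 5 gave 26.4% and 38.2%, and that of member 6 38.3% and 34.8%, against 27.7% and 24.3% for member 3. Member 4 had 226 and 207 RPM in replicates 1 and 2, against 253 and 271 RPM for the 31-nt form. Its 5′ end had 2634 reads of 28 nt and 4577 of 31 nt over both libraries but only 61 of 29 nt, so its lengths had 2 separate peaks. Member 5 had 72.4 RPM in replicate 1 and 160.1 RPM in replicate 2, against 123 and 139 RPM for its 30-nt form, so that the order of both forms differed between libraries. This end too had 2 peaks, with 1395 reads of 27 nt, 8 of 28 nt, 25 of 29 nt and 1656 of 30 nt. Member 6 was at 112 and 105 RPM, against 135 and 144 RPM for its longer form.

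Members made up 6.76% of the insert reads of replicate 1 (exact binomial 95% interval 6.74% to 6.79%) and 7.27% of replicate 2 (7.25% to 7.29%), 7.02% ± 0.360 on average (SD, n = 2). Inserts of 29 to 31 nt made up 71.0% of replicate 1 and 77.7% of replicate 2. These and later intervals cover counting error only, since reads copied by PCR from 1 molecule are counted separately here, and with 2 libraries no paired exact test can give a p below 0.5. Within the members, 28 nt dominated with 61.4% ± 2.09 of member reads, before 27 nt with 23.9% ± 0.456 and 26 nt with 14.7% ± 1.64 (n = 2 each). Just outside the length limits, 25 nt held 0.765% ± 0.127 of insert reads and 29 nt 18.7% ± 1.36, beside 1.03% ± 0.0620 at 26 nt and 4.31% ± 0.368 at 28 nt. The members thus ran without a gap into the main class, and no separate peak was seen at 26 to 28 nt.

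Most members were rare. Of all distinct members, 73.2% had a single read in both libraries together, and 52323 of the 276554, 18.9%, were seen in both. Those 52323 held 67.2% of member reads in replicate 1 and 67.3% in replicate 2. At 29 to 31 nt, the inserts seen in both libraries held 85.4% and 84.7% of the reads. A total of 541 members had 100 or more reads over both libraries, and 511 of these, 94.5%, differed by less than 2-fold in RPM between the libraries. The reads were spread over 101980 distinct 5′ ends in replicate 1 and 119608 in replicate 2, with a 5′ end taken as the first 20 nt. In these libraries 5513 and 4412 ends held 50% of the member reads, which are 5.41% and 3.69% of the member ends. Of the 405110 and 491360 ends of 29 to 31 nt inserts, 4939 and 4357 held 50% of the reads, 1.22% and 0.887% of them. These percentages depend on depth and were not compared at equal depth. Members had 319447 and 459858 reads in replicates 1 and 2, against 3351686 and 4911036 at 29 to 31 nt.

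The first question was how many members share their 5′ end with a longer insert. In replicate 1, 85.9% of member reads (interval 85.8% to 86.04%) had their first 20 nt at the start of a 29 to 31 nt insert of the same library, and in replicate 2 88.9% (88.8% to 89.01%), a mean of 87.4% ± 2.12 (n = 2). Counted as distinct sequences the share was 72.4% ± 1.72. By reads the share went up with length, from 80.8% ± 2.64 at 26 nt and 86.04% ± 2.45 at 27 nt to 89.6% ± 1.61 at 28 nt. Both libraries had this order. By distinct sequences it did not: the shares were 70.3% ± 2.87, 73.7% ± 2.17 and 72.6% ± 0.981, with 28 nt below 27 nt in both libraries. Reads of 25 nt, just below the limit, shared their start in 75.9% ± 2.23.

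Sharing a 5′ end with the main class was not particular to the members. Of reads of 32 to 33 nt, 89.1% ± 1.35 had their first 20 nt at the start of a 29 to 31 nt insert, and of 29-nt reads, 89.3% ± 1.25 shared them with an insert of 30 or 31 nt. By reads, both shares were somewhat above that of the members in each library: 88.2% in replicate 1 and 90.1% in replicate 2 at 32 to 33 nt, and 88.5% and 90.2% at 29 nt. By distinct sequences inserts of 29 nt were below the members in both libraries, at 59.8% ± 0.459 against 72.4% ± 1.72. Inserts of 32 to 33 nt were at 72.1% ± 1.07, and the libraries disagreed on their order. They had 71.4% against 71.2% of members in replicate 1, and 72.9% against 73.6% in replicate 2. In the other direction, 78.1% ± 2.28 of the 29 to 31 nt reads had a 26 to 28 nt form in the same library.

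Whether a longer partner was seen followed the abundance of the member. Among members with 1 read in a library 64.7% ± 1.66 had a partner there, among those with 2 to 9 reads 95.2% ± 0.0784, and among those with 10 to 99 reads 99.5% ± 0.0830. Of members with 100 reads or more, 113 of 113 in replicate 1 and 254 of 255 in replicate 2 had one. With partners sought in either library, 203506 of the 276554 distinct members had one and 73048 had none.

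Most partnered members were simple shortenings. In 90.9% ± 0.375 of their reads, and in 78.9% ± 1.93 of the distinct partnered members (n = 2 each), the whole member was the exact beginning of a 29 to 31 nt insert. In 95.2% ± 1.01 of these reads the commonest longer insert of that end also began with the member. Against it the member was shorter by 1 nt in 29.9% ± 1.45 of reads, by 2 nt in 29.95% ± 0.0759, by 3 nt in 28.1% ± 0.0347, by 4 nt in 8.85% ± 1.03 and by 5 nt in 3.25% ± 0.535. Shortenings of 1, 2 and 3 nt were therefore about equally common, and longer ones were fewer in both libraries. The length limits bound these values. Members of 28 nt, with 61.4% of member reads, can be at most 3 nt shorter than an insert of 29 to 31 nt. Only the shortest members can be 5 nt shorter. The lower shares at 4 and 5 nt thus follow at least in part from the limits chosen, and no preferred shortening is read from them.

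A smaller set differed from every longer insert at the last base alone. These were 6.67% ± 0.530 of partnered reads, and they made up 73.4% ± 2.80 of the partnered reads that were no exact beginning. The odd last base was U in 47.7% ± 0.694, C in 36.2% ± 6.85, and A in 9.47% ± 0.662 of them. G was the odd base in 10.5% of these reads in replicate 1 and 2.73% in replicate 2, so that the libraries disagreed on it. The commonest exchange was C in the member where the longer insert had U, at 27.6% of such reads in replicate 1 and 36.1% in replicate 2. The opposite, U where the longer insert had C, made up 21.2% and 23.7%. Such reads were about as common among the neighbouring length: the last base alone differed in 6.30% and 7.05% of partnered member reads in replicates 1 and 2, against 5.87% and 6.63% of 29-nt reads set against 30 to 31 nt inserts. Untemplated additions and base errors at the 3′ end cannot be told apart here without a genome.

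Members without a longer partner made up less of the reads than of the distinct sequences, of which 72.4% ± 1.72 had a partner. Partnerless members held 44980 of 319447 member reads in replicate 1 and 50964 of 459858 in replicate 2. Of these partnerless reads 47.1% ± 0.409 began inside a longer insert. This was sought only in partnerless members, so no such share is given for partnered ones. The start of a partnered member can lie inside longer inserts too, as that of member 6 did in 96 of them. In 26.5% ± 0.759 the member was the exact end of a 29 to 31 nt insert, with the same 3′ end and a later 5′ end. A further 20.6% ± 0.350 began inside a longer insert but ended elsewhere. In 13.6% ± 0.946 a longer insert began inside the member. In 13.9% ± 1.10 the first 20 nt differed at 1 base from the start of a longer insert, and position 7 took 17.97% ± 0.743 of these differences, against 5.89% ± 0.471 at position 4, the next highest. The remaining 25.3% ± 1.64 had none of these relations. They were nearly all single reads, with 11910 reads of 11746 distinct sequences in replicate 1 and 12312 of 12133 in replicate 2.

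The sequences of the most abundant partnerless members show this shift of the 5′ end. Each is given with the commonest longer insert that holds its start, in which capitals mark the bases in front of the member. The last pair stands among the ends skewed to the short form, described below.
Partnerless member 1, 26 nt: attgaagtagacgaagaacttcacct
Longer insert holding it, 31 nt: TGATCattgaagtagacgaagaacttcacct
Partnerless member 2, 26 nt: gtgagctccttgaggacagggacagt
Longer insert holding its start, 31 nt: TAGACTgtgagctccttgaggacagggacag
Skewed member, 27 nt: ctgtgatcccagacgaatgtcctgtgt
Longer insert holding it, 30 nt: GCTctgtgatcccagacgaatgtcctgtgt
Partnerless member 1 had 65 reads in replicate 1 and 112 in replicate 2, which are 13.8 and 17.7 RPM. The 31-nt insert that starts 5 nt earlier had 29.01 and 25.6 RPM. The other two partnerless members by rank share that 5′ end, and are 1 base longer or differ in the last base. No read of 29 to 31 nt had this 5′ end in either library, against 271 reads of 26 to 28 nt, which is at least 90.3-fold more against a floor of 3 reads over both libraries. Partnerless member 2 had 34 and 29 reads, and the 31-nt insert that starts 6 nt earlier had 1668 and 2587. It ends 1 base before the member does. Both partnerless members begin inside a longer insert that has more reads, and neither starts with U.

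The shift of the 5′ end was taken as the commonest one over the longer inserts that hold the first 20 nt of the member. Among members that were the exact end of a longer insert, it was 4 nt in 26.2% ± 1.33 of reads, the most of the shifts of 1 to 5 nt. A shift of 3 nt made up 19.2% ± 0.501, 2 nt 15.5% ± 0.255, 5 nt 11.9% ± 0.336 and 1 nt 11.9% ± 0.248. Members shifted by 4 nt began with A in 55.1% ± 3.10 of reads and with U in 17.4% ± 0.712. Their first base lies at position 5 of those longer inserts, and position 5 was A in 47.0% ± 0.0120 of all 29 to 31 nt reads.

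The first base differed between partnered and partnerless members, but the grouping itself depends on that base. Partnered members began with U in 92.0% ± 0.0999 of reads and partnerless ones in 62.8% ± 2.57, against 90.5% ± 0.0152 of 29 to 31 nt reads. By definition a partnered member has the first base of a 29 to 31 nt insert. Its high share of U is therefore largely set by how it was chosen, and the split is given as a description. Members of all kinds began with U in 87.6% of reads in replicate 1 and 89.0% in replicate 2, a difference from the 29 to 31 nt reads of -2.23 ± 1.01 percentage points. It was below 0 in both libraries. By length, U began 81.3% ± 1.72 of reads at 26 nt, 86.7% ± 1.32 at 27 nt and 90.6% ± 0.473 at 28 nt, so that the 28-nt members were level with the main class. Members that were exact ends of longer inserts, at any shift, began with U in 27.1% ± 2.68 of reads and with A in 38.4% ± 3.89.

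Adenine at position 10, which marks piRNAs of the ping-pong cycle, was at 29.7% ± 0.256 in members and 30.8% ± 0.234 in 29 to 31 nt reads. The difference was -1.11 ± 0.0222 percentage points and had the same sign in both libraries. Among positions 1 to 11, the largest differences stood at positions 4, 11 and 5. Adenine at position 4 was at 27.4% in members against 32.2% in 29 to 31 nt reads, a difference of -4.79 ± 0.228 points. At position 11, G was at 27.6% against 23.6%, a difference of 3.96 ± 0.422 points, and A at 23.8% against 26.7%, a difference of -2.90 ± 0.314 points. Cytosine at position 5 was at 14.0% against 16.8%, a difference of -2.79 ± 0.302 points, while A at position 5 differed by 0.280 ± 0.563 points, less than the spread between libraries. RefSeq microRNA hairpins (GRCm38.p6, 1005 hairpins) held 102 distinct members as exact stretches, with 0.143% and 0.121% of member reads in replicates 1 and 2.

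The 3′ ends of the members had their own base pattern. Members ended with U in 36.3% ± 0.0740 of reads, against 46.6% ± 0.801 of 29 to 31 nt reads, a difference of -10.3 ± 0.727 points. A was the last base in 18.5% against 12.9%, a difference of 5.66 ± 0.292 points. The base that would have come next was read from the commonest 31-nt insert of the same end, for 13578 ends with 100 or more reads of 26 to 31 nt over both libraries. Of reads that stopped after position 26, 46.6% ± 1.35 stopped in front of an A, against 26.2% ± 0.455 with A there among reads that went on. After position 27 the shares were 48.3% ± 0.602 and 26.3% ± 0.599, and after position 28 37.6% ± 0.576 and 19.6% ± 0.331. In each case the difference was larger than the spread between libraries.

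Stopping in front of A was not limited to the members. After position 29, 26.2% ± 0.163 of reads that stopped had A next, against 13.0% ± 0.605 of those that went on. Put as a rate, 9.70% ± 0.284 of the reads that reached position 28 stopped there when A came next, against 4.89% ± 0.345 with C, 4.29% ± 0.0548 with G and 3.54% ± 0.0696 with U. After position 27 the rate was 3.40% ± 0.0574 in front of A and 1.13% ± 0.0442 in front of U.

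The 3′ adapter of the libraries begins with AGA, and the rates moved with the match to it. After position 26, 0.747% ± 0.112 of reads stopped where the next base did not match the adapter, 1.07% ± 0.193 where the next base alone matched, 2.57% ± 0.00919 where the next 2 matched and 5.46% ± 0.164 where 3 matched. After position 27 these rates were 1.33%, 2.39%, 4.24% and 7.84%. After position 28 they were 4.18%, 10.1%, 8.34% and 17.1%, so that there a match of 2 bases gave no higher rate than 1. Members 4 and 6 above stop in front of AGA and member 5 in front of AG. On these ends 18.4% ± 0.122 of the 26 to 28 nt reads stopped in front of AG, the start of the adapter. The part of this match in the A next to the members was not tested beyond the following values. Without templates that go on with AG, A came next in 25.98% ± 1.23 of reads that stopped after position 26 and 19.6% ± 0.504 of those that went on. After position 27 it was 29.2% ± 0.363 against 18.4% ± 0.435, and after position 28 27.9% ± 0.312 against 13.1% ± 0.249.

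The share of the short form varied widely from end to end. Over 13901 ends with 100 or more reads of 26 to 31 nt, which held 56.5% and 59.2% of member reads in replicates 1 and 2, the median share of 26 to 28 nt reads was 5.32% in replicate 1 and 4.93% in replicate 2. The middle 90% of ends ran from 0% to 27.4% in replicate 1 and from 0% to 28.6% in replicate 2. Ends high in one library were high in the other, with Pearson's r of 0.914 and Spearman's rho of 0.803 between the shares. These are given as a description across 13901 ends, which are not independent replicates and share their libraries.

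To find ends whose short share stood apart beyond the spread between libraries, 26 to 28 nt and 29 to 31 nt reads were compared within libraries by edgeR's quasi-likelihood test with Benjamini-Hochberg adjustment over all ends. At an adjusted p under 0.05, 3223 ends, 23.2%, were skewed to 26 to 28 nt and 3394, 24.4%, to 29 to 31 nt, 6617 or 47.6% in all. With 2 libraries, the test estimates the spread of an end in large part from the other ends. The skew is relative to the ratio that the trimmed mean of M-values (TMM) scaling sets as typical. The lengths compared are those that define the members. Ends entered by their reads summed over both classes, so the most extreme ends passed only through the class in which they are high. The calls describe single ends and give no support for the members as a group. Scaled by column totals the counts were 2563 and 4790, and the DESeq2 Wald test called 2023 and 929. The median short share of ends skewed to 26 to 28 nt was 17.2% in replicate 1 and 17.5% in replicate 2, and of those skewed to 29 to 31 nt 1.49% and 1.20%. The first base told neither group apart: 95.5% of ends skewed to 26 to 28 nt began with U, 94.9% of those skewed to 29 to 31 nt and 95.2% of all ends tested. A was at position 10 in 26.99%, 30.4% and 29.3% of these sets.

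The base at position 29, the first that a 28-nt member lacks, differed more. It was A in 42.5% of ends skewed to 26 to 28 nt with a 31-nt insert, in 9.94% of those skewed to 29 to 31 nt and in 23.6% of all. U stood there in 16.7%, 40.6% and 29.5%. Further upstream, G at position 27 was found in 35.8% of ends skewed to 26 to 28 nt, 17.4% of those skewed to 29 to 31 nt and 24.1% of all. These are descriptions of groups formed by the length ratio itself, with no test.

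Ends whose commonest longer length was 29 nt had more of the short form. Their median short share was 9.68% and 9.38% in replicates 1 and 2 over 3261 ends. It was 4.92% and 4.48% over 6784 ends with 30 nt as the commonest length, and 3.85% and 3.43% over 3855 ends with 31 nt. Of the first group 45.8% were called toward 26 to 28 nt, against 17.9% and 13.3% of the others and a background of 23.2%. The groups were formed from the same 29 to 31 nt reads that enter the short share and the call. The values are therefore a description, with no independent test.

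Ends that gave mostly 26 to 28 nt were few. The short form was above 50% of reads in 133 of 13901 ends in both libraries, and these ends held 3.55% and 4.08% of member reads. Of the 133, 126 or 94.7% began with U, about the share of all ends tested, 95.2%. The commonest short length was 28 nt in 120 of them, 27 nt in 9 and 26 nt in 4. It was not counted for the other ends tested, and 28 nt held 61.4% ± 2.09 of all member reads. In 24 of the 133 ends, 18.05%, the end lay inside a more abundant longer insert, against 1718 or 12.4% of all ends tested. The highest ratios belonged to partnerless member 1 above, then to the skewed 27-nt member shown with it. That 27-nt end had 45 short reads and no longer read in replicate 1, and 99 short and 3 longer reads in replicate 2. It starts 3 nt into a 30-nt insert of 196 and 224 RPM and has the same 3′ end. The next had 43 and 75 reads of 26 to 28 nt and is not shown: it resembles the 5′ adapter used with such kits, which was not checked against a kit sequence here. It remains in the counts of ends. The last of the 4 highest was a 28-nt RNA that starts with U, shown because it has hardly any longer form. The capital marks the base present in the longer insert alone.
Mostly short end, 28 nt: tgaaaacaccctggaggaattccgaagt
Its commonest longer form, 29 nt: tgaaaacaccctggaggaattccgaagtG
This end had 61 short and 5 longer reads in replicate 1, and 128 short and 6 longer reads in replicate 2, so the short form made up 92.4% and 95.5%.

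At the other extreme, 424 of the 13901 ends had no read of 26 to 28 nt in either library. The 4 lowest ratios belonged to such ends, of which the commonest longer insert is shown as an example of an RNA without a 26 to 28 nt form.
End 1 without a short form, 30 nt: taaatatgactgacttgggtcaagcactcc
End 2 without a short form, 31 nt: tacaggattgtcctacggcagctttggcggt
End 3 without a short form, 31 nt: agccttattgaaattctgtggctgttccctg
End 4 without a short form, 31 nt: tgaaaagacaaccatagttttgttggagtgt
End 1 had 0 short reads, against 478 reads of 29 to 31 nt in replicate 1 and 858 in replicate 2. Against a floor of 3 reads over both libraries, the longer form was at least 445-fold higher. End 2 had 0 short reads, against 428 and 675 longer reads. Ends 3 and 4 also had 0 short reads in both libraries, against 418 and 396 longer reads for end 3 and 283 and 459 for end 4. Reads of 20 to 25 nt over both libraries numbered 7 at end 1, 8 at end 2, 21 at end 3 and 0 at end 4. The 3′ ends of the longer reads differed in spread. Over both libraries, end 2 had 944 reads of 31 nt against 154 of 30 nt, and end 4 had 673 against 65. End 1 had 1086 reads of 30 nt, 115 of 29 nt, 135 of 31 nt and 101 of 32 nt. End 3, which starts with A, had 659 reads of 31 nt, 152 of 30 nt and 472 of 32 nt.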

How the data were processed

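Small RNAs purified with PIWIL1 were sequenced in 2 libraries made with a NEBNext small RNA kit after gel size selection, per the labels' protocols. The authors deposited read counts: per the file headers, each distinct 50-nt read has 1 count per replicate, untrimmed and unaligned. Bowtie, STAR and mm10 are named in the submitters' processing notes with no role given.

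The adapter start was read from the data as the commonest 10 nt after base 30. An insert is the sequence before its first exact match, found in 97.6% and 98.7% of reads of replicates 1 and 2; reads of adapter alone and reads without a match (1.95% and 1.27%) were left out. Inserts that leave less than 10 nt of adapter in the read cannot be found this way. Partners were sought in the same library. Stop rates divide the reads of a given length by those of that length up to 31 nt, exact beginnings of the commonest 31-nt insert. RPM are per 1000000 insert reads.

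For the test, reads per 5′ end (first 20 nt, 100 or more reads) were fitted in edgeR 4.0.16 under R 4.3.3 with TMM scaling and the library as a block, which pairs both length classes because they were counted in the same library; DESeq2 1.42.0 was an alternative. Shares have exact (Clopper-Pearson) intervals. The classing and the fit were tested on simulated data. The named RNAs are the 6 most abundant members, the 4 most abundant partnerless ones and the 4 ends with the highest and the 4 with the lowest ratio among called ends. The members and lists were chosen with earlier results of these data known, and the adapter match of the 3′ ends, the base groups and the 5′ shifts were examined after the data were seen.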

Additional observations from a re-analysis of the deposited data

How the results depend on the processing

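The share of members in the insert reads was 6.76% to 7.27% leaving out either replicate, and the share with a longer partner 85.9% to 88.9%. Matching 8 or 12 nt of the adapter, sharing the first 18 or 24 nt instead of 20 and thinning replicate 2 to the insert reads of replicate 1 moved these shares by less than the SD between libraries. Partners sought in either library gave 89.8%, and leaving out inserts with 1 read gave 95.8%. Without members whose commonest longer form goes on with AG, an alternative added after the data were seen, members made up 6.23% of insert reads, and 6453 of 13777 ends were called. The differences in first-base U and position-10 A kept their sign under each alternative run for them.

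Of 13901 ends, 6617 were called. The DESeq2 Wald test called 2952, of which 2023 toward 26 to 28 nt and 929 toward 29 to 31 nt, so that 68.5% of its calls were toward 26 to 28 nt, against 48.7% with edgeR; the cause was not tested. With a minimum of 20 reads 11279 of 47381 ends were called, 6689 of them toward 29 to 31 nt, and with 500 reads 1675 of 2613, with 812 and 863 in each direction; these differ in the number of ends tested. Without the replicate block 6415 ends were called, against 6617 with it. With a single library no residual degrees of freedom are left: 7457 ends without replicate 1 and 6934 without replicate 2 lay more than 2-fold from the median end, against 7029 with both.

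Members of 1 read, 73.2% of distinct ones, limit the search for partners. A 5′ end of 20 nt can stem from several genomic copies.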
